A study of Mus musculus with 2 samples.

Results

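The Mir378 family was described in the embryonic mouse heart (strain B6NCrl, day 15.5), from 2 small RNA libraries that form 1 group. Replicate 1 was made from the hearts of 78 embryos and replicate 2 from those of 62, healthy, with males and females pooled in each, so the spread between the libraries is one between pools. No second condition, genotype or treatment is part of the design. The labels number the pools as biological replicates. The family has 4 members here, among 1973 miRNA genes with a row in the count files. Mir378b, Mir378c and Mir378d were taken by their symbols, with reads on their own strand. Mir378a was read from the opposite strand of Gm25301, a predicted miRNA gene that lies across it. The members were chosen with earlier results of these data known, and were in part selected on the difference between the libraries and on the counts opposite Gm25301. Their levels and that difference are therefore given as a description, with no test.

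MicroRNAs are cut from a hairpin precursor into a short mature strand, and the bases near its 5′ end, the seed, pair with target mRNAs. Mir378a sits in an intron of Ppargc1b, which encodes a coactivator of mitochondrial and fatty acid oxidation genes, and is known as a miRNA of heart, skeletal muscle and brown fat that acts on energy metabolism. Mir378b, Mir378c and Mir378d are further annotated hairpins at other places in the genome whose mature strands resemble it.

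The mature sequences show how alike the members are, which bears on every count below, since a read that matched several places in the genome is in no gene count. RefSeq sequences on GRCm38.p6 were found for 3 of the 4 members, with Mir378a unmatched. Capitals mark the seed, bases 2 to 8.
mmu-miR-378b: cUGGACUUggagucagaaga
mmu-miR-378c: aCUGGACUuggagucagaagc
mmu-miR-378d: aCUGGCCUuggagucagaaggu

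The mature strands of Mir378b and Mir378c have a run of 19 bases in common, cuggacuuggagucagaag, and Mir378b starts 1 base further in. Its seed is thereby moved by 1 base, and these 3 members have different seeds. Aligned at that offset, Mir378b (20 bases) and Mir378c (21 bases) differ by A20C, counted from 1 at the 5′ end of Mir378b. Mir378c and Mir378d (22 bases) align from their first base and differ by A6C, inside the seed, and by C21G, counted from the 5′ end of Mir378c. All 3 have the 14 bases cuuggagucagaag in common, found in 3 of the 1005 hairpins of the table, those of the members themselves. None of the 3 seeds was also the seed of another gene among the 1738 mature sequences of the table. Mir378a is not in that table, so neither the seeds nor the 14-base run could be compared with it. Reads that end within the shared run cannot be placed on Mir378b or Mir378c alone, so the counts of both are uncertain and can fall short. Whether such reads also match Mir378a, and are missing from its count and share, was not tested without its sequence.

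The hairpins carry the mature strand on different sides. They are shown because the run that the members share lies in unlike surroundings, with the mature strand in capitals.
Mir378b, chr11:88352773-88352864, plus strand: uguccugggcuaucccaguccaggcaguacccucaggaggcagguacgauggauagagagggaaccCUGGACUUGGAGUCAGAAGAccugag
Mir378c, chr14:46954830-46954928, minus strand: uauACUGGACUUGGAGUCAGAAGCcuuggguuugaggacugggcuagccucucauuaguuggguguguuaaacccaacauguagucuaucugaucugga
Mir378d, chr10:126710282-126710391, minus strand: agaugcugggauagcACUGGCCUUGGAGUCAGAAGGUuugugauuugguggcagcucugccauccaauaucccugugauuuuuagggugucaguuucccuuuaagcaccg

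The mature strand of Mir378b occupied bases 67 to 86 of its 92-base hairpin, on the 3′ arm. Those of Mir378c (bases 4 to 24 of 99) and Mir378d (bases 16 to 37 of 110) lay on the 5′ arm. The longest run that whole hairpins had in common was that of the mature strands, 19 bases between Mir378b and Mir378c and 14 between each of these and Mir378d. The predicted minimum free energy was -31.1 kcal per mol for Mir378b, -27.0 for Mir378c and -35.0 for Mir378d. Per base this came to -0.338, -0.273 and -0.318, weaker folds than the median of -0.406 over the 1005 hairpins. By that measure 24.1% of the hairpins were weaker than Mir378b, 6.77% weaker than Mir378c and 17.0% weaker than Mir378d. In the predicted folds 15 of the 20 mature bases of Mir378b were paired, 15 of the 21 of Mir378c and 13 of the 22 of Mir378d.

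The annotated surroundings differ too. Mir378b (ENSMUSG00000092985.1) lies inside an intron of Msi2, an RNA-binding protein gene, and Mir378c (ENSMUSG00000099036.1) inside an intron of Samd4, another RNA-binding protein gene, each on the strand opposite to the host. Mir378d (ENSMUSG00000098756.1) overlaps no other annotated gene. None of these 3 therefore has a host gene on its own strand. Mir378a alone does, as described with its counts below.

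Replicate 1 held 3439539 counts on the strand of a miRNA gene and replicate 2 held 5833156, out of 7056606 and 11735546 reads. Reads that matched several places were 33.0% and 30.1% of these. Levels are CPM, counts per 1000000 of the gene-strand counts, which can be compared between miRNAs only as counts, and ± gives the SD over both libraries. Intervals are exact for independent counts and cover counting error only, not the spread between pools. Since reads without molecular identifiers are not independent molecules, the intervals can be too narrow even for that. The heart muscle markers Mir208a, Mir208b, Mir499 and Mir490 were all present, with sums of 62459 and 45593 CPM in replicates 1 and 2. A floor of 10 counts per library was reached in both by 327 genes, and likewise by all 4 members.

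The family was almost wholly the Mir378a locus. On the strand of Mir378a, opposite Gm25301 (ENSMUSG00000093026.1), 163166 reads were counted in replicate 1 and 198395 in replicate 2. The level was 47438 CPM in replicate 1 (95% Poisson interval 47208 to 47669) against 34012 CPM in replicate 2 (33862 to 34162), or 40725 ± 9494 CPM (n = 2). The level in replicate 1 lay above that in replicate 2, and the intervals did not overlap. The Gm25301 row spans positions 61397813 to 61397925 of chromosome 18 (GRCm38) on the plus strand, and the Mir378a hairpin, positions 61397835 to 61397900 on the minus strand, falls within it. Both lie in an intron of Ppargc1b, which runs on the strand of Mir378a. The strand of Gm25301 itself had 0 counts in both libraries, which allows it a share of up to 0.00184% of the row's reads in replicate 1 and 0.00151% in replicate 2. Whether every one of these reads is a mature Mir378a read was not tested, since the files give counts per row and neither arms nor positions.

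Mir378d was the next member, with 283 counts in replicate 1 and 273 in replicate 2. Its level was 82.3 CPM in replicate 1 (73.0 to 92.4) against 46.8 CPM in replicate 2 (41.4 to 52.7), a mean of 64.5 ± 25.1 CPM. Replicate 1 was again the higher, with intervals that did not overlap. Mir378c had 203 and 225 counts, or 59.0 CPM in replicate 1 (51.2 to 67.7) against 38.6 CPM in replicate 2 (33.7 to 44.0), a mean of 48.8 ± 14.5 CPM. It followed the same order between the libraries. Mir378b had the fewest, 44 and 58 counts, which is 12.8 CPM in replicate 1 (9.29 to 17.2) against 9.94 CPM in replicate 2 (7.55 to 12.9), a mean of 11.4 ± 2.01 CPM. For Mir378b the intervals of the libraries overlapped. On the strands opposite Mir378b, Mir378c and Mir378d the count was 0 in both libraries.

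**Figure D1:**
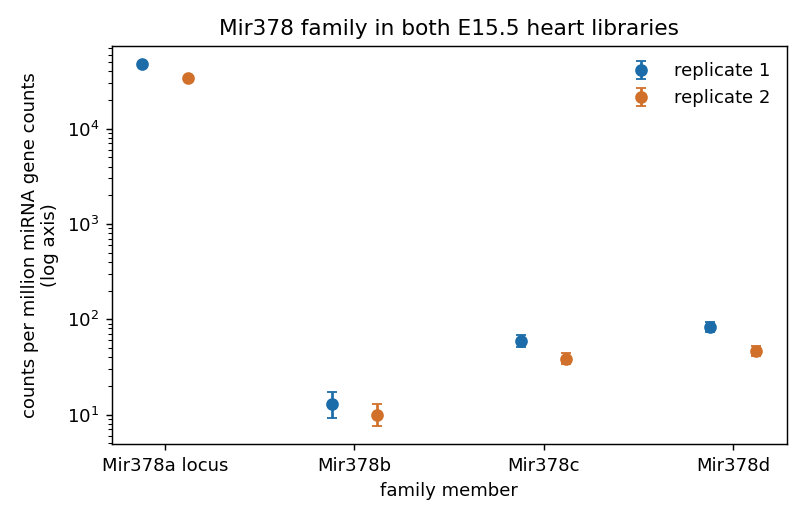
Level of each member in each library, in CPM on a log axis, with exact 95% Poisson intervals (counting error only). The Mir378a locus sits at 47438 and 34012 CPM, and the other 3 members lie between 9.94 and 82.3 CPM.

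Within the family the shares were close in both libraries. The Mir378a locus held 99.7% ± 0.0313 of the family counts. The other 3 together held 0.324% in replicate 1 (Clopper-Pearson 95% interval 0.297% to 0.352%) against 0.279% in replicate 2 (0.257% to 0.304%). Mir378d took 0.173% and 0.137%, Mir378c 0.124% and 0.113%, and Mir378b 0.0269% and 0.0292%. For Mir378d the interval of replicate 1, 0.153% to 0.194%, lay above the value of replicate 2. For Mir378c and Mir378b it included that value.

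Set against the Mir378a locus, there were 1.24 Mir378c counts per 1000 in replicate 1 (interval 1.08 to 1.43) and 1.13 in replicate 2 (0.991 to 1.29). For Mir378d there were 1.73 per 1000 (1.54 to 1.95) and 1.38 (1.22 to 1.55), and for Mir378b 0.270 (0.196 to 0.362) and 0.292 (0.222 to 0.378). For each of the 3 the intervals of the libraries overlapped, Mir378d only between 1.54 and 1.55. How far reads of the Mir378a locus that carry a base change are placed on the other hairpins was not tested. As log2 ratios to the Mir378a locus the members stood at -9.34 ± 0.24 for Mir378d, -9.72 ± 0.09 for Mir378c and -11.80 ± 0.08 for Mir378b.

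The order of the small members was the same in both libraries. Mir378d had 1.39 times the counts of Mir378c in replicate 1 (interval 1.16 to 1.68) and 1.21 times in replicate 2 (1.01 to 1.45), although the ranges of their CPM over the libraries overlapped. Mir378c had 4.61 times the counts of Mir378b in replicate 1 (3.32 to 6.55) and 3.88 times in replicate 2 (2.90 to 5.27). In the sequences above, the least counted of the 3, Mir378b, has its mature strand on the 3′ arm and starts 1 base further in. It also has 19 bases in common with Mir378c, where Mir378d has only 14 in common with either. Whether arm, start or the share of reads that could be placed bears on this order was not tested.

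Among all counted genes the members fell far apart. The Mir378a locus, which has no rank of its own because it was read from the opposite strand, had 8 genes above it by count in each library. Reads that matched several places are in no row, so miRNAs with near copies can stand too low. Such miRNAs could also exceed the Mir378a locus. The nearest above by mean level was Mir208b, in an intron of Myh7, the gene of the slow, fetal heart myosin heavy chain, with 53878 and 37837 CPM in replicates 1 and 2. Mir208b exceeded the Mir378a locus in both libraries, but by less than the spread between them. Above Mir208b stood Mirlet7g, at 56459 and 56362 CPM, higher than the Mir378a locus in either library. Below it stood Mir26b at 33707 and 30006 CPM and Mir30e at 31002 and 24543 CPM, both lower than the Mir378a locus in either library.

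Mir378d ranked 209th by mean CPM and Mir378c 219th, each among genes from which it did not differ beyond the spread between the pools. Next to Mir378d were Mir493 (65.1 ± 4.46 CPM) and Mir181a-2 (72.5 ± 1.46 CPM) above, and Mir673 (63.1 ± 4.89 CPM) and Mir92-2 (62.4 ± 47.1 CPM) below. Next to Mir378c were Mir679 (50.7 ± 11.2 CPM) and Mir3074-1 (51.3 ± 3.85 CPM) above, and Mir199a-2 (48.0 ± 10.4 CPM) and Mir377 (47.4 ± 6.96 CPM) below. Each mean differed from that of the member by less than the member's own SD. Mir378d was above Mir493, Mir673 and Mir92-2 in replicate 1 and below them in replicate 2, so the order changed between the pools. The neighbours Mir493, Mir673, Mir679 and Mir377 belong to the imprinted Dlk1-Dio3 region. Mir378b ranked 271st, with 270 genes above it.

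**Figure D2:**
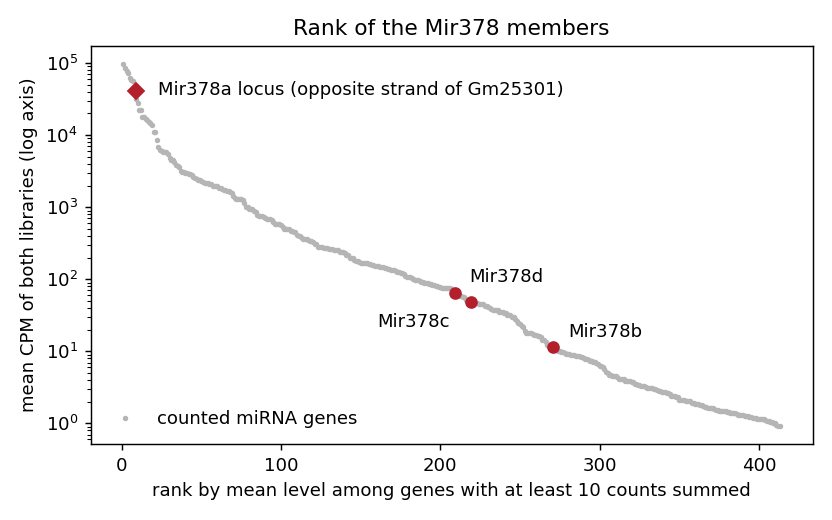
Mean CPM of both libraries (log axis) against rank for the 413 miRNA genes with at least 10 counts summed, with the members in red. The Mir378a locus (diamond) stands below 8 genes, while Mir378d, Mir378c and Mir378b stand at ranks 209, 219 and 271. Reads that matched several places are in no row, so genes with near copies can stand too low.

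The reading of Mir378a from the opposite strand is not peculiar to it in these files. More opposite-strand than gene-strand counts, with at least 10 in both libraries, were found in 11 of the 1973 rows, and in all 11 another miRNA is annotated across the row on the other strand. None of these 11 other miRNAs has a row of its own among those analysed here. Gm25301 held 78.0% of all opposite-strand counts in replicate 1 (209241 in all) and 66.3% in replicate 2 (299184 in all). The next were Gm25927, across Mirlet7e, with 4360 and 5202 opposite-strand counts per 1000000 gene-strand counts, Gm24321, across Mir409, with 2265 and 3319, and Gm24083, across Mir191, with 2118 and 2513. The Mir378a locus exceeded each of them in both libraries. By these values, scaled by total counts, 3 of all 11 rows were higher in replicate 1. They were Gm25301, Gm24111 across Mirlet7f-1 (144 and 138) and Mir1b (19.2 and 11.5). With the TMM scaling used further below, Mir299b (log2 ratio 0.023), Mir497b (0.010) and Gm25750 (0.075) were higher in replicate 1 too. All of these but Gm25301 were chosen for mention after their values were seen. Mir1b lies across Mir1a-2, a gene of the main heart muscle miRNA, and had 66 and 67 opposite-strand counts. The same mature miRNA comes from Mir1a-1, so its reads match several places and are left out, and these counts say nothing of its level beside Mir378a.

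**Figure D3:**
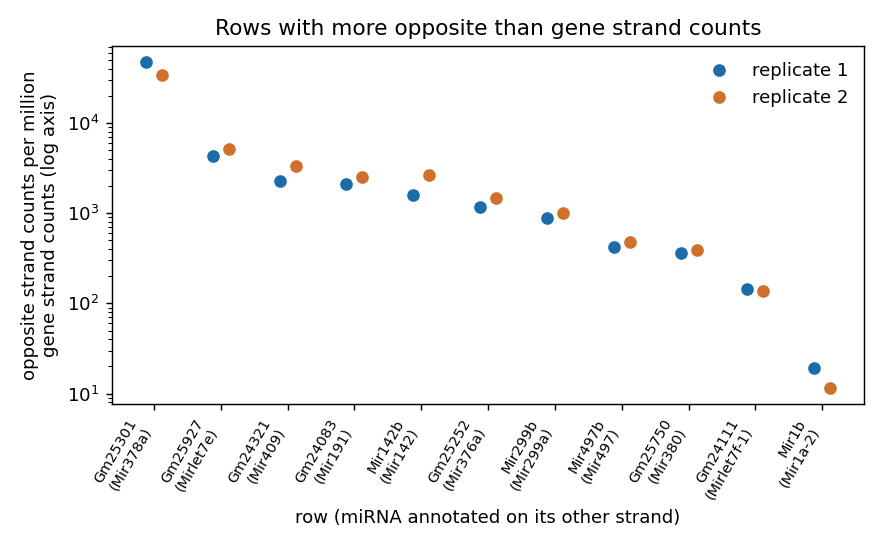
Opposite-strand counts per 1000000 gene-strand counts (log axis) in each library, for the 11 rows where they exceeded the gene-strand counts in both, with the miRNA annotated on the other strand in brackets. Gm25301, across Mir378a, is the highest in both libraries at 47438 and 34012.

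All 4 members were higher in the library of replicate 1. With TMM scaling of the libraries (trimmed mean of M values), the log2 ratio of replicate 1 to replicate 2 was 0.68 for the Mir378a locus (exact 95% counting interval 0.67 to 0.69). It was 1.02 for Mir378d (0.77 to 1.26), 0.82 for Mir378c (0.54 to 1.10) and 0.57 for Mir378b (-0.03 to 1.16). Ratios past 1.5-fold, a log2 ratio of 0.58, were reached by 3 of the 4, with Mir378b just short of it and the Mir378a locus the nearest above. Among the 413 genes with at least 10 counts summed, 201 had a log2 ratio above 0, that is, were higher in replicate 1. Past 1.5-fold were 43 of the 413 (10.4%) toward replicate 1 and 79 (19.1%) toward replicate 2. This contrast was known when the members were chosen, so nothing is read from their number.

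The scaling matters for the size of this difference. Without TMM, by total counts, every log2 ratio was lower by 0.20, and 2 of the 4 members, Mir378d (0.81) and Mir378c (0.61), were past 1.5-fold. The Mir378a locus then stood at 0.48. By total counts 26 of the 413 genes (6.30%) were past 1.5-fold toward replicate 1 and 101 toward replicate 2. Each of the 4 members was higher in replicate 1 under all 5 scalings tried. The ratio compares 2 libraries of 1 group and no conditions.

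**Figure D4:**
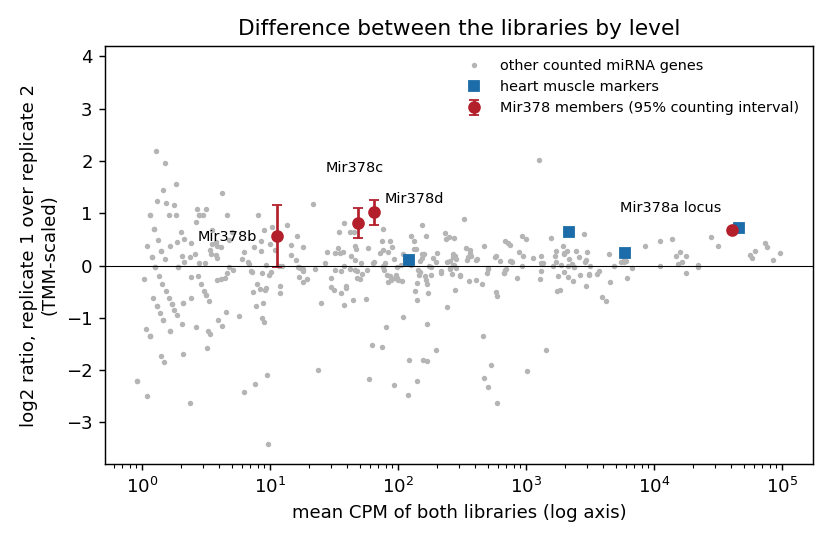
Log2 ratio of replicate 1 to replicate 2 (TMM-scaled) against mean CPM (log axis) for the miRNA genes with at least 10 counts summed and some in both libraries. The members (red, with 95% counting intervals) lie between 0.57 and 1.02, and the heart muscle markers (blue squares) between 0.10 and 0.71.

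Among 249 other genes with a mean of at least 100 counts, those whose log2 ratio lay nearest to the 0.68 of the summed family were Mir6236, Mir208b and Mir499. Mir6236, on chromosome 9, had 89.0 and 63.3 CPM, with a log2 ratio of 0.70. Mir208b had a log2 ratio of 0.71, and Mir499, in an intron of the myosin gene Myh7b, had 0.65. This likeness rests on 2 libraries, so that it is 1 ratio per gene.

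Ratios within a library do not depend on the scaling between libraries. The Mir378a locus had 0.880 times the counts of Mir208b in replicate 1 (interval 0.875 to 0.886) and 0.899 times in replicate 2 (0.893 to 0.904). To Mir499 the ratio was 19.0 (18.6 to 19.5) and 18.6 (18.2 to 19.0). Both ratios moved little between the libraries, by -0.03 and 0.03 on the log2 scale. This restates the nearness by which both genes were named above and is no separate result. To the other heart muscle markers the ratio moved more. The ratio to Mir208a, in an intron of the alpha myosin heavy chain gene Myh6, was 7.94 and 5.86, and that to Mir490, in an intron of the receptor gene Chrm2, was 403 and 270. Against the 4 heart muscle markers summed, it was 0.760 (0.755 to 0.764) and 0.746 (0.742 to 0.750). Mir208b made up most of that sum, with a mean of 45857 of 54026 CPM.

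Markers of other cell types also differed between the libraries. Fewer cells of a type and less RNA per cell cannot be told apart in such bulk libraries. The 7 epithelium markers (Mir200a, Mir200b, Mir200c, Mir141, Mir429, Mir203 and Mir205) summed to 1821 and 6297 CPM in replicates 1 and 2, and 6 of the 7 were past 1.5-fold toward replicate 2, beside 19.1% of all 413 genes. The ratio of the Mir378a locus to their sum fell from 26.1 in replicate 1 to 5.40 in replicate 2. The hepatocyte miRNA Mir122 had 87.2 and 309 CPM. Of the 6 neural markers with a row, Mir137 gave nearly all of 44.5 and 236 CPM, and 4 were at 0 in both libraries. Those 4, Mir124a-1, Mir124a-2, Mir124a-3 and Mir9-2, are numbered copies, and reads that match several copies are in no row. Their zeros therefore do not show absence. The erythroid markers Mir451a and Mir144 summed to 2376 and 986 CPM, with a ratio of the Mir378a locus to them of 20.0 and 34.5. That difference was one of Mir451a, with 1975 and 564 CPM, while Mir144 had 401 and 422 CPM. The part of such differences in tissue make-up in the family's own difference was not tested.

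The smooth muscle markers Mir143 and Mir145a summed to 83563 and 89291 CPM and the endothelial Mir126a had 79217 and 67775 CPM. The ratio of the Mir378a locus was 0.568 and 0.381 to the first and 0.599 and 0.502 to the second. The skeletal muscle markers, where Mir378a is also known to be abundant, had 75.6 and 104 CPM, nearly all of it Mir206, so that the Mir378a locus exceeded them 628-fold in replicate 1 and 327-fold in replicate 2. The Mir133b row had 8 and 14 counts. Any of its reads that also match Mir133a-1 or Mir133a-2 are in no row, so both folds can be too high. The miRNAs associated with brown fat, the other tissue known for Mir378a, summed to 497 and 779 CPM, led by Mir455 with 441 and 720 CPM. Of those 6 genes Mir196a-1 was at 0 in both libraries. Mir196a-1 and Mir196a-2, like Mir365-1 and Mir365-2, are numbered copies, and reads that match both copies are in no row. Their counts can thus fall short, and the 0 does not show absence.

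**Figure D5:**
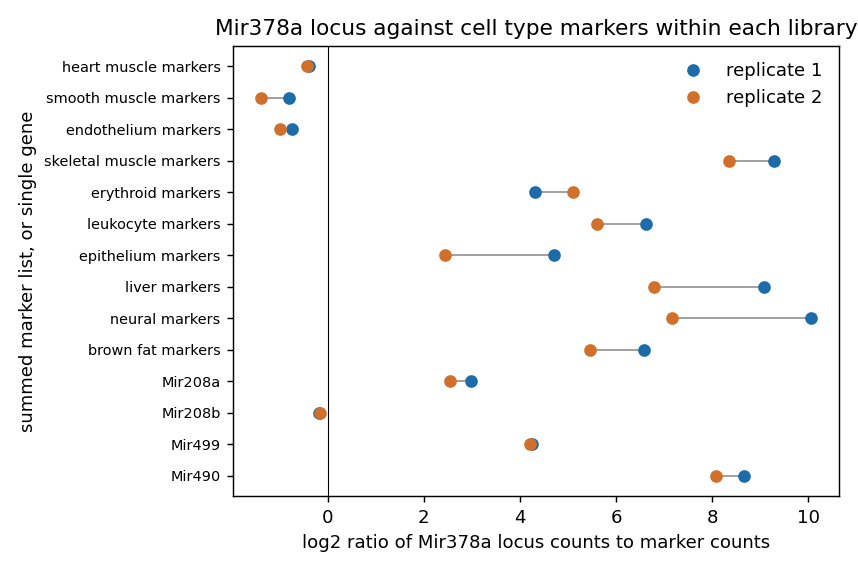
Log2 ratio of the counts of the Mir378a locus to those of each summed marker list, and to the 4 heart muscle genes singly, in each library. The points of both libraries nearly coincide for the summed heart muscle markers, Mir208b and Mir499, and lie farthest apart for the neural, liver and epithelium lists. Mir208b and Mir499 were named as nearest by log2 ratio, and Mir208b makes up most of the heart muscle sum.

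Lists of muscle miRNAs and of miRNAs of lipid, glucose or mitochondrial metabolism place the family among genes of like roles. Of 14 muscle symbols 11 had a row, and 9 had at least 10 counts summed. Among those, 2 were past 1.5-fold toward replicate 1, Mir208b and Mir499, and 0 toward replicate 2, beside 10.4% and 19.1% of all 413 genes. By total counts 0 of the 9 were past it toward replicate 1. The median log2 ratio was 0.16, beside -0.01 over all 413 genes. The leading muscle genes were Mir208b, Mir208a (5886 ± 121 CPM), Mir499 (2160 ± 469 CPM) and Mir490 (122 ± 5.96 CPM). By count only Mir208b of this list exceeded the Mir378a locus. The rows of Mir1a-1 (3 and 4 counts) and Mir133a-1 (5 and 7 counts) belong, like Mir378b and Mir378c, to hairpins with near copies elsewhere, and their counts can fall short in the same way.

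Of 29 metabolism symbols 28 had a row, and 25 were compared between the libraries. Toward replicate 1, 3 were past 1.5-fold, namely Mir107 (log2 ratio 0.60), Mir499 (0.65) and Mir193b (0.64), and toward replicate 2 there were 5, with a median of 0.04. These counts of 25 are near the shares of all 413 genes, 10.4% and 19.1%, and by total counts 0 of the 25 were past 1.5-fold toward replicate 1 and 8 toward replicate 2. The leading genes of the list were Mir143 (85423 ± 4199 CPM), Mir107, a miRNA of insulin sensitivity (2841 ± 546 CPM), Mir181c (2572 ± 56.1 CPM) and Mir499. By count the Mir378a locus stood above 27 of the 28, all but Mir143. Mir103-1, Mir103-2, Mir29b-1 and Mir29b-2, like the Mir365 and Mir196a genes of the list, are numbered copies whose counts can fall short. For these, a place below the Mir378a locus does not show a lower level. Mir33, the miRNA in the sterol regulator gene Srebf2, had 29.8 ± 6.36 CPM, in the range of Mir378b to Mir378c.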

How the data were processed

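Small RNA of embryonic heart was analysed from the deposited counts, 1 file per library, whole and unnormalized. The authors used mm10 and GENCODE M4, per the notes deposited beside the counts. Not given in the sources used here are aligner, trimming and counter. The 3 count columns were read as either strand, gene strand and opposite strand, by their values. Reads that matched several places are in no row. The 4 leading lines without a gene were left out of the gene-strand totals and entered only the numbers of all reads. Gene IDs without version were matched to GENCODE M21 (GRCm38) for symbols and positions, 1894 of 1973 matching.

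The members and lists were chosen with earlier results of these data known. Levels are CPM of gene-strand totals. Libraries were scaled by TMM over genes with at least 10 counts summed (edgeR 4.0.16, R 4.3.3, factors 0.932 and 1.073), or in alternatives by total counts, other filters or DESeq2 1.42.0 size factors. Log2 ratios carry exact conditional binomial intervals. The procedure was run on simulated Poisson counts, the model these intervals assume, which says nothing of the spread between pools. Hairpins were folded with RNAfold 2.7.2. Other computations used Python 3.11.15, pandas 2.3.3, numpy 2.4.6 and scipy 1.17.1. Genes were named by rule: the members, 2 neighbours by level on each side of the Mir378a locus, Mir378c and Mir378d, the 3 nearest by log2 ratio, and up to 4 leading genes per list or of the opposite-strand rows. Others named by value, such as the past-threshold genes of the metabolism list and Mir33, were chosen after seeing values.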

Additional observations from a re-analysis of the deposited data

How the results depend on the processing

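No paired analysis was possible because there is only 1 group. With all reads of a library as the denominator, mean levels per 1000000 fell to 20014 for the Mir378a locus, 5.59 for Mir378b, 24.0 for Mir378c, 31.7 for Mir378d and 20075 for the family sum. The log2 ratio of replicate 1 to replicate 2 was 0.65, 0.63 and 0.48 for the Mir378a locus with TMM over all genes, TMM over genes with at least 100 counts, and total counts, and 0.65, 0.63 and 0.48 for the family sum. The share of genes past 1.5-fold toward replicate 1 was 6.30% by total counts, 18.6% of 687 genes with at least 1 count and 5.84% of 274 genes with at least 100. Of the other alternative values, 21 could have moved and were counted as unchanged, most of them by lying within the spread or interval of the reported value. For Mir378b, Mir378c and Mir378d between the libraries this reflects wide intervals from few counts, since total counts shifted every log2 ratio alike by -0.20. The number of rows with more opposite-strand than gene-strand counts has no interval, and went from 11 to 10 with at least 100 opposite-strand counts. Another 45 show nothing of stability, since with 2 libraries each lies within 1 SD of their mean, and the unused strand of every member had 0 counts. A change of direction was found in 0 values. Few counts limit Mir378b, whose interval between the libraries includes 0.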
